A study of Homo sapiens with 6 samples.

Results

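A set of 10 HIF target genes with roles outside glycolysis (NDRG1, BNIP3, BNIP3L, P4HA1, ADM, EGLN3, LOX, ANKRD37, CA12 and CA9) was examined in SW839, an established cell line of renal cell carcinoma. They were picked by symbol from the 30267 genes of the deposited expression table, in which all 10 are listed. Total RNA depleted of ribosomal RNA had been sequenced from 3 libraries of cells carrying a lentiviral hairpin against the ubiquitin ligase RNF25 (genotype shRNF25, treatment shRNA) and 3 libraries of cells carrying the pLKO vector (genotype shControl, treatment shRNA). All cells had been grown in RPMI medium with fetal bovine serum under a CO2 atmosphere, and transduced cells had been selected with puromycin, per the methods of the study. The labels name a single hairpin, shRNF25B, so that a change caused by RNF25 and one caused by that hairpin sequence cannot be told apart. The control libraries carry unlike names, while those of the knockdown are numbered in a series. Whether both groups were prepared together was not given in the sources used here. A difference between preparations and one between the groups could therefore not be told apart. An oxygen level was also not given in these sources.

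Hypoxia-inducible factor (HIF) is a transcription factor made of an oxygen-labile alpha subunit, encoded by HIF1A or EPAS1, and a stable partner encoded by ARNT. In the presence of oxygen, prolyl hydroxylases of the EGLN family mark the alpha subunit and the VHL protein brings about its degradation, while in low oxygen the dimer binds the core motif of hypoxia response elements beside its target genes. Clear cell renal carcinoma is known for the loss of VHL and the resulting constant activity of HIF, and the targets examined here reach from mitophagy and collagen modification to peptide hormones, pH control and the oxygen sensor itself.

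The bases just before the gene starts are shown for the core motif through which HIF is known to act, which most of them hold, and EGLN3 is shown as the gene without it. The motif was searched as ACGTG or GCGTG on both strands in the 250 bases before each start of the RefSeq promoter table (GRCh38.p14), where 8 of the 10 genes had an entry and NDRG1 and BNIP3L had none. In each sequence the gene's own strand is written 5′ to 3′, and capitals mark matches on either strand. For BNIP3, LOX and EGLN3 the stretch outside annotated exons is given, and for P4HA1, ADM, ANKRD37, CA12 and CA9, whose matches fall within exons annotated in GENCODE 29, a match with its flanks in 25 bases.
BNIP3, chr10:131982014-131982173, minus strand: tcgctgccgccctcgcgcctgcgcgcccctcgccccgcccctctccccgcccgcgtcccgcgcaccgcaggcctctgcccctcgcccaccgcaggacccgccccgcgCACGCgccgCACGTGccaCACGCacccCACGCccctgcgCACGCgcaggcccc
LOX, chr5:122078361-122078509, minus strand: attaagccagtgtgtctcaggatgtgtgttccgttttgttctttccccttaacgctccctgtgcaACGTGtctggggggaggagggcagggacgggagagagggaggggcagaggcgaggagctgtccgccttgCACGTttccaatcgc
EGLN3, chr14:33951082-33951324, minus strand: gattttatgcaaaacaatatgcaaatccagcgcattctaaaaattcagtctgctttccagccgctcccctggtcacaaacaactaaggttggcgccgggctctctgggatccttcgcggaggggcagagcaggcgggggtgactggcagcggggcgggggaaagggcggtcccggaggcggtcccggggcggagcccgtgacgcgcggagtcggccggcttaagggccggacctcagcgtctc
P4HA1, chr10:73096938-73096962, minus strand: tgatcgagctCACGTagcgagggct
ADM, chr11:10304962-10304986, plus strand: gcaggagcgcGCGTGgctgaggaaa
ANKRD37, chr4:185396669-185396693, plus strand: cgccgggctcCACGTGccagtgttt
CA12, chr15:63382066-63382090, minus strand: ggatctcaccCACGCctgccagcag
CA9, chr9:35673900-35673924, plus strand: gtttccaatgCACGTacagcccgta

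BNIP3 carried the densest group, with 6 matches between bases -143 and -100 relative to its start, and a palindromic CACGTG there was counted once on each strand. LOX had 4 matches before the first of its 3 listed starts, of which 2 lie in the stretch shown, and ANKRD37 had 3. P4HA1, ADM, CA12 and CA9 had 1 match each, and EGLN3 had none in this window. At least 1 match was thus present for 7 of 8 genes, against 47.4% of all 27305 symbols of the table and 34 of 42 other HIF targets with an entry. Among single promoters, 43.2% of 35116 held a match and 1.36% held 5 or more. A match of these letters is a description of the sequence and not a measured binding site, and no match says only that the letters are absent from the window.

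**Figure D1:**
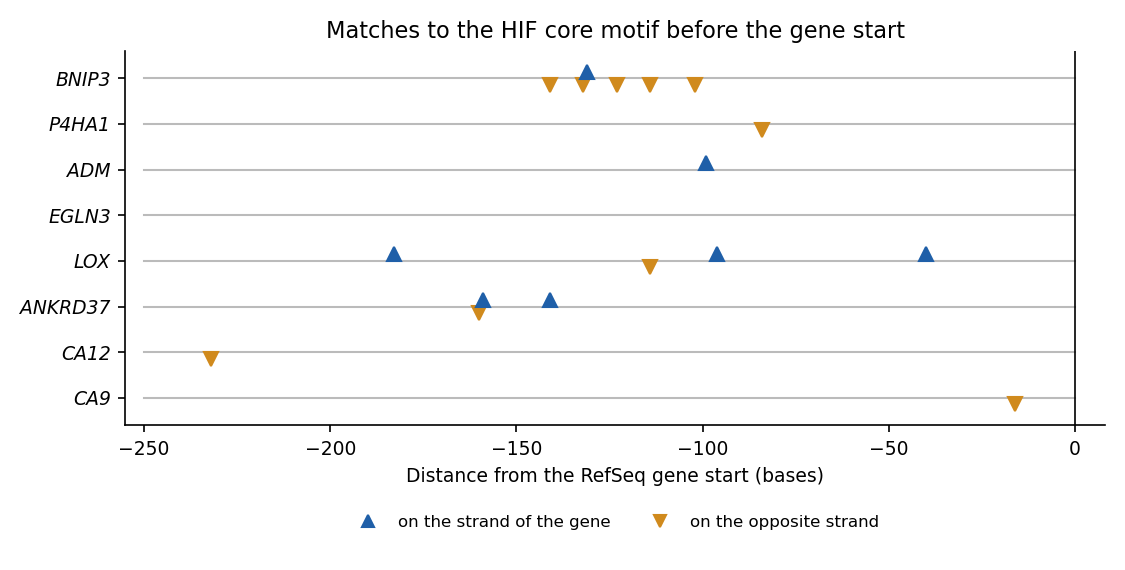
Matches to the core motif (ACGTG or GCGTG) in the 250 bases before the first RefSeq start of 8 HIF target genes, by distance from the start in bases, with triangles pointing up for the strand of the gene and down for the opposite strand. BNIP3 shows 6 matches, all between bases -143 and -100, while EGLN3 shows none.

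The libraries held 18647460 to 19943154 reads assigned to genes, and the values used are normalized counts, which are reads divided by the size factor of the library. The libraries of shControl were less alike than those of shRNF25, with Pearson correlations of log2 values across genes of 0.976 to 0.988 against 0.994. The library shControl 1 stood apart with 12.1% of its reads on mitochondrial genes against 3.58% to 4.44% in the other libraries, and its part in the results was not tested beyond leaving it out. The labels call the triplicates biological without naming separate cultures, so that p-values measure the spread between these libraries. RNF25 itself, a check of the labels, had 694.2, 533.5 and 536.4 normalized counts in shControl 1, 2 and 3, and 214.1, 245.7 and 265.0 in shRNF25 1, 2 and 3. It fell by 1.27 on the log2 scale (standard error 0.150, Benjamini-Hochberg adjusted p = 0.000585 from limma).

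Of the 10 genes, 9 had enough reads to be tested (10 or more normalized counts in 3 or more libraries), and 5 of these were lower in shRNF25 while 0 were higher. A gene was called when its adjusted p was below 0.05 and its fold change at least 1.5, a call that 7.1% of all 16554 tested genes met in the lower and 8.65% in the higher direction. By limma, edgeR and DESeq2 alike, 0 of the 9 were higher at an unadjusted p under 0.05, and 7 were lower at that level. The share of all tested genes at that level was not computed. Counts at an unadjusted p, here and in the lists below, therefore have no background beside them. NDRG1, BNIP3, BNIP3L, P4HA1 and ADM fell to between 14.7% and 40.6% of the control mean. LOX, EGLN3, ANKRD37 and CA12 did not pass, and CA9 was below the filter. The median log2 fold change of the 9 tested genes was -1.25, beside -0.01 for all tested genes. In 8 of the 9, all but CA12, every shRNF25 library lay below every shControl library, which was the case for 21.8% of all tested genes, while 20.7% lay wholly above. Each of these 8 had p = 0.1 in an exact permutation test (two-sided), which is the lowest p that groups of 3 can give. In bulk RNA, fewer cells that express a gene and less RNA per cell cannot be told apart.

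**Figure D2:**
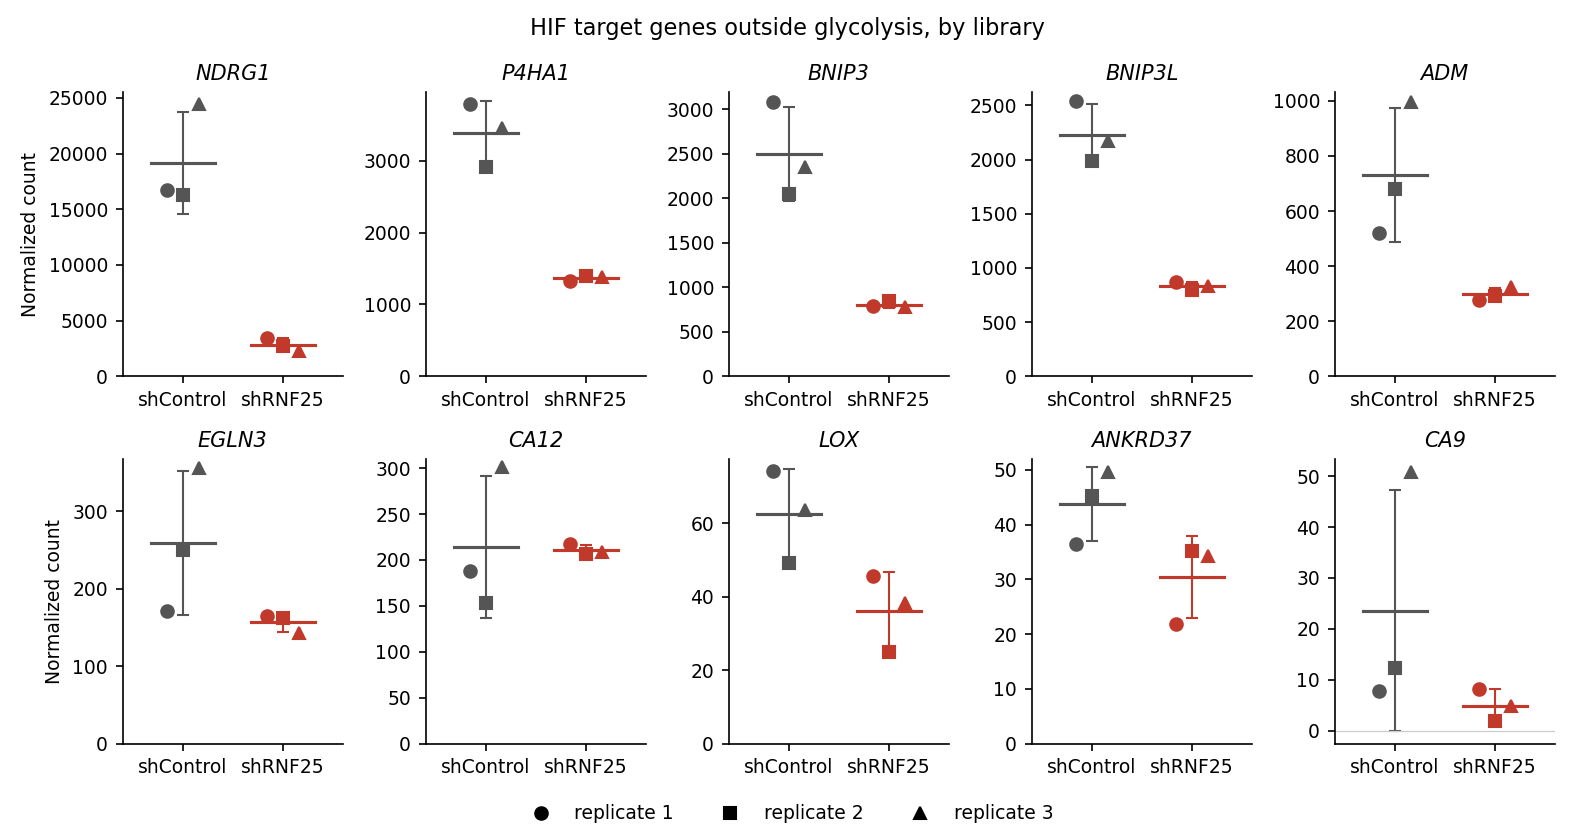
Normalized counts of the 10 HIF target genes in each library, 1 panel per gene with its own linear axis that includes 0, grey for shControl and red for shRNF25, marker shapes for replicate numbers, horizontal lines for the mean and bars for the SD (n = 3). NDRG1, P4HA1, BNIP3, BNIP3L and ADM are separated widely, LOX, EGLN3 and ANKRD37 by a small gap, and CA12 and CA9 overlap.

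NDRG1 encodes a stress-responsive cytoplasmic protein long used as a readout of hypoxia, and it had both the highest level and the largest fall of the set. Its locus is on the minus strand of chromosome 8, from 133237171 to 133302022 (GRCh38, GENCODE 29). Its normalized counts were 16694, 16321 and 24425 in shControl 1, 2 and 3, and 3429, 2733 and 2295 in shRNF25 1, 2 and 3. The highest library was shControl 3, and every knockdown library stood far below every control. It fell by 2.76 on the log2 scale (standard error 0.190, 95% interval -3.19 to -2.33, adjusted p = 3.48e-05 from limma), a 6.76-fold decrease. In the order of all tested genes from the largest fall, NDRG1 stood at place 54 of 16554. Among its 3 relatives, NDRG4 fell by 0.97 (adjusted p = 0.00347 from limma), while NDRG2 had a log2 fold change of -0.19 and NDRG3 of 0.04, neither past the test.

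BNIP3 and BNIP3L encode related proteins of the outer mitochondrial membrane that act as receptors for mitophagy, the removal of mitochondria by autophagy, and both fell. The BNIP3 gene lies on chromosome 10 from 131966455 to 131982013 on the minus strand, and BNIP3L on chromosome 8 from 26382898 to 26505636 on the plus strand. BNIP3 had 3079, 2052 and 2348.5 normalized counts in shControl 1, 2 and 3, and 789.1, 846.9 and 776.8 in shRNF25 1, 2 and 3. BNIP3L had 2537, 1988 and 2168 in the controls, and 866.5, 795.1 and 835.9 in the knockdown libraries. In both genes shControl 1 was the highest library, and the 3 shRNF25 libraries differed little among themselves. BNIP3 fell by 1.61 on the log2 scale (standard error 0.150, adjusted p = 0.000176 from limma) to 32.3% of the control mean, and BNIP3L by 1.41 (standard error 0.119, adjusted p = 0.000112) to 37.3%. Of the 50-base words in BNIP3 transcripts, 9.92% also occur in another annotated gene, nearly all of them in the pseudogene BNIP3P1, so that a small part of its reads could be split or lost in counting. Among 11 other tested genes of mitophagy and its adaptors, 0 were called lower and 0 higher with limma, edgeR or DESeq2. Their median log2 fold change was -0.16, and limma called 7.1% of all tested genes lower and 8.65% higher. At an unadjusted p under 0.05, limma had 3 of the 11 lower and 0 higher. OPTN and MAP1LC3B, a mitophagy adaptor and a protein of the autophagosome membrane, had log2 fold changes of -0.58 and -0.35 with adjusted p-values under the threshold, but under the 1.5-fold limit (both named after their values were seen). PINK1, the kinase of the other main mitophagy route, had -0.16.

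P4HA1 and LOX act on collagen, the former as the catalytic subunit of the prolyl hydroxylase that stabilizes the triple helix, the latter as the secreted oxidase that starts its cross-linking. P4HA1 (chromosome 10, 73007217 to 73096974, minus strand) had 3789.5, 2908 and 3460.2 normalized counts in shControl 1, 2 and 3, and 1327, 1392 and 1385 in shRNF25 1, 2 and 3. It fell by 1.30 on the log2 scale (standard error 0.119, adjusted p = 0.000168 from limma), to 40.4% of the control mean. The knockdown libraries lay close together and well below the lowest control. LOX (chromosome 5, 122063195 to 122078360, minus strand) was far less abundant, with 74.1, 49.2 and 63.7 in the controls, and 45.6, 24.9 and 38.1 in the knockdown libraries. The highest LOX value of shRNF25 was just under the lowest of shControl, and the log2 fold change of -0.79 did not pass (standard error 0.268, 95% interval -1.39 to -0.18, adjusted p = 0.0658). It passed with quantile normalization (-0.96, adjusted p = 0.0300 from limma) and with the replicate number as a block (adjusted p = 0.0401 from limma). In the other 14 alternatives that tested it, LOX did not pass. The highest adjusted p was 0.232, from limma without shRNF25 2 (-0.55).

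Other collagen-modifying enzymes were also measured. Among 13 further hydroxylases and chaperones of collagen, 2 were called lower and 0 higher by limma, edgeR and DESeq2 alike. By limma, 7.1% of all tested genes were called lower and 8.65% higher. The median of the 13 was -0.19, with 4 lower and 2 higher genes at an unadjusted p under 0.05. PLOD2, a lysyl hydroxylase, fell by 1.36 (adjusted p = 0.000120 from limma) and P4HA2, the second alpha subunit of the prolyl hydroxylase, by 0.99 (adjusted p = 0.00135). Both also belong to the list of other HIF targets described below, so these counts are not separate. SERPINH1, the collagen chaperone, had a log2 fold change of 0.61 and P3H2, a prolyl hydroxylase for another position, of 0.51, with the former at an adjusted p over the threshold and the latter under the 1.5-fold limit (named after their values were seen). Of 4 LOX relatives, LOXL2 fell by 1.15 (adjusted p = 0.000928) and LOXL4 rose by 1.10 (adjusted p = 0.0124), while LOXL1 and LOXL3 had 0.15 and -0.23.

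ADM encodes adrenomedullin, a secreted peptide that widens vessels, and it fell. The gene lies on chromosome 11 from 10304680 to 10307397 on the plus strand. Its normalized counts were 518.5, 679.2 and 996.2 in shControl 1, 2 and 3, and 277.0, 291.8 and 322.2 in shRNF25 1, 2 and 3. The controls were spread more widely than the gap between the groups, and no library crossed over. ADM fell by 1.25 on the log2 scale (standard error 0.213, 95% interval -1.73 to -0.77, adjusted p = 0.00378 from limma). Its adjusted p remained below 0.05 under every alternative run, with 0.0266 as the highest, when shRNF25 1 was left out. CALCRL, a part of the adrenomedullin receptor, had between 0 and 5 reads in any library. RAMP2 and RAMP3, its partners in that receptor, were absent from the expression table. RAMP1, which joins CALCRL in another receptor, had a log2 fold change of 0.47 without passing. The related peptide gene ADM2 had 0.31, also without passing.

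EGLN3 encodes a prolyl hydroxylase that marks HIF for degradation and is itself a HIF target, a feedback of the pathway. It lies on chromosome 14 from 33924231 to 34462774 on the minus strand. The window searched for the motif, 33951075 to 33951324, is inside this span, and the bases before a start at 34462774 were not searched. EGLN3 had 171.3, 250.4 and 356.2 normalized counts in shControl 1, 2 and 3, and 164.9, 162.5 and 143.0 in shRNF25 1, 2 and 3. The controls spread widely, and shControl 1 came within a few counts of the highest knockdown library. The log2 fold change of -0.66 did not pass (standard error 0.239, 95% interval -1.20 to -0.12, adjusted p = 0.0796 from limma). The value moved with single control libraries in both directions. Without shControl 1, the library rich in mitochondrial reads, the log2 fold change was -0.93 and passed (adjusted p = 0.00226 from limma), while without shControl 3, the highest library, it was -0.40 (adjusted p = 0.157). DESeq2 also called EGLN3 (-0.71, adjusted p = 0.0283), as did limma with library weights (adjusted p = 0.0371).

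None of the genes that make and sense HIF met both criteria. Of 12 tested HIF subunits, oxygen sensors and parts of the VHL complex, 0 were called lower and 0 higher with limma, edgeR or DESeq2. Over all tested genes limma called 7.1% lower and 8.65% higher, so that few calls would be expected among 12 genes. Their median log2 fold change was -0.13. At an unadjusted p under 0.05, limma had 1 lower and 1 higher. HIF1A had a log2 fold change of -0.20 (adjusted p = 0.556), with 15289 normalized counts in shControl 1 against 7365 and 9786 in shControl 2 and 3 and 8474 to 9531 in shRNF25, and its sign turned to 0.08 without shControl 1. EPAS1 had -0.25 (adjusted p = 0.204) and ARNT -0.33 (adjusted p = 0.165). VHL had -0.04 and EGLN2 0.06, and the sign of both turned under other scalings or when single libraries were left out. EGLN1, the main oxygen sensor, had -0.25 (adjusted p = 0.240), and -0.38 (adjusted p = 0.0160) without shControl 1, under the 1.5-fold limit. HIF1AN, the asparagine hydroxylase that blocks HIF activity, had 0.34 at an adjusted p of 0.0495 from limma, also under the 1.5-fold limit, and this p was above 0.05 in 7 alternatives. These are RNA levels, and HIF protein, which oxygen controls after translation, was not measured in these libraries.

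ANKRD37, an ankyrin repeat protein known mainly as a hypoxia marker, was low in all libraries. It lies on chromosome 4 from 185396021 to 185400628 on the plus strand. Its normalized counts were 36.5, 45.1 and 49.6 in shControl 1, 2 and 3, and 21.9, 35.1 and 34.3 in shRNF25 1, 2 and 3. The lowest control was just above the highest knockdown library, and the log2 fold change of -0.53 did not pass (95% interval -1.10 to 0.04, adjusted p = 0.172 from limma). UFSP2 overlaps 35.2% of its exon bases on the other strand. The library kit marked strand per the methods of the study, but whether reads were counted by strand was not given in the sources used here, so reads of both genes may be mixed.

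CA12 and CA9 encode carbonic anhydrases of the cell surface that help tumor cells to control pH, and CA9 is a marker of clear cell renal carcinoma. CA12 (chromosome 15, 63321378 to 63382161, minus strand) had 187.9, 152.9 and 301.1 normalized counts in shControl 1, 2 and 3, and 216.9, 206.9 and 208.7 in shRNF25 1, 2 and 3. The knockdown libraries sat inside the range of the controls. Its log2 fold change was 0.04 (95% interval -0.47 to 0.55, adjusted p = 0.924 from limma), a sign that turned to -0.01 with DESeq2 and to -0.17 without shControl 2, and the interval leaves room for changes between -0.47 and 0.55.

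CA9 (chromosome 9, 35673856 to 35681159, plus strand) was barely detected, with 7, 12 and 47 reads in shControl 1, 2 and 3, and 9, 2 and 5 reads in shRNF25 1, 2 and 3. Most of its control reads came from 1 library, shControl 3, and the groups overlapped. Tested without the filter on low values, its log2 fold change was -1.77 (95% interval -3.26 to -0.28, adjusted p = 0.130 from limma), and the difference of mean log2 values was -1.02 without shControl 3. The exact permutation test of CA9 (two-sided) gave p = 0.2. These few and uneven reads settle no direction for CA9, and ARHGEF39 overlaps 38.5% of its exon bases on the other strand. Among 4 tested relatives, CA13 rose by 0.65 (adjusted p = 0.0422 from limma), a call lost in 9 alternatives, with adjusted p-values up to 0.177, and CA5B, CA11 and CA14 had log2 fold changes of 0.02 to 0.37.

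**Figure D3:**
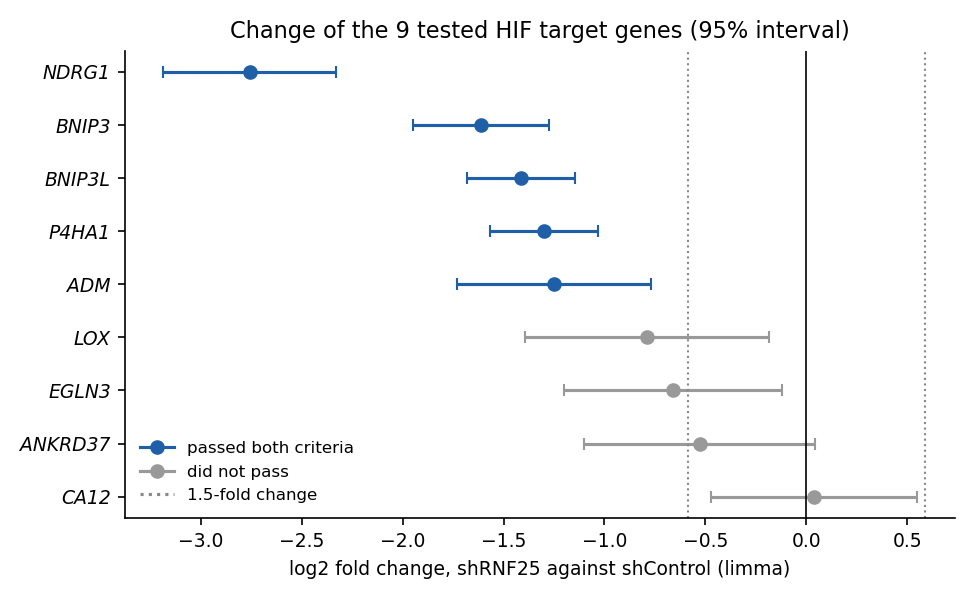
Log2 fold change of shRNF25 against shControl from limma for the 9 tested HIF target genes, with 95% intervals, in blue where both criteria were met and in grey where not, and dotted lines at a 1.5-fold change. The 5 blue intervals, from NDRG1 at -2.76 to ADM at -1.25, lie wholly beyond the dotted line, the intervals of LOX, EGLN3 and ANKRD37 cross it, and that of CA12 is centered near 0.

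The genes differed widely in level. Per kilobase of annotated exon sequence, shControl had 1949 ± 466 normalized counts of NDRG1, 1095 ± 144 of P4HA1, 518 ± 64.9 of BNIP3L, 468 ± 99.2 of BNIP3 and 269 ± 89.4 of ADM (SD, n = 3). These 5 abundant genes were also the 5 that were called. EGLN3 followed with 35.2 ± 12.6, CA12 with 29.3 ± 10.6, ANKRD37 with 17.0 ± 2.59, CA9 with 14.1 ± 14.1 and LOX with 11.2 ± 2.25. Among neighbors in this order, the control libraries did not separate BNIP3L from BNIP3, EGLN3 from CA12, ANKRD37 from CA9 or CA9 from LOX. The control range of CA9, 4.63 to 30.4, also overlapped those of CA12 (20.9 to 41.2) and EGLN3 (23.3 to 48.4). In shRNF25 the order at the top changed, with 442 ± 11.6 for P4HA1 above 287 ± 58.2 for NDRG1. The control libraries also did not rank alike across genes, since NDRG1, ADM, EGLN3, ANKRD37, CA12 and CA9 were highest in shControl 3, whereas BNIP3, BNIP3L, P4HA1 and LOX were highest in shControl 1.

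Ratios of related genes within a library were compared next, since they depend little on its scaling except for genes with few reads, to which the added count of 1 matters. For 5 pairs the log2 ratio of the first to the second gene was compared between groups with two-sided exact permutation tests, and each gave an adjusted p of 0.3 over the 5 pairs. With 3 libraries a group these exact tests could not go below p = 0.1, so that they settle neither an equal nor an unequal change. The ratio of BNIP3 to BNIP3L was 0.15 ± 0.12 in shControl and -0.05 ± 0.12 in shRNF25 (SD, n = 3, difference -0.20, standard error 0.0991, exact p = 0.2), with 1 knockdown library inside the range of the controls. P4HA1 to P4HA2 differed by -0.31 (standard error 0.235, exact p = 0.3), EGLN3 to EGLN1 by -0.41 (standard error 0.248, exact p = 0.2) and LOX to LOXL2 by 0.37 (standard error 0.352, exact p = 0.3), all with overlapping groups. CA9 to CA12 was the pair whose groups did not overlap, with -3.50 ± 0.944 in shControl and -5.31 ± 0.820 in shRNF25 (exact p = 0.1), and it rests on the few reads of CA9.

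**Figure D4:**
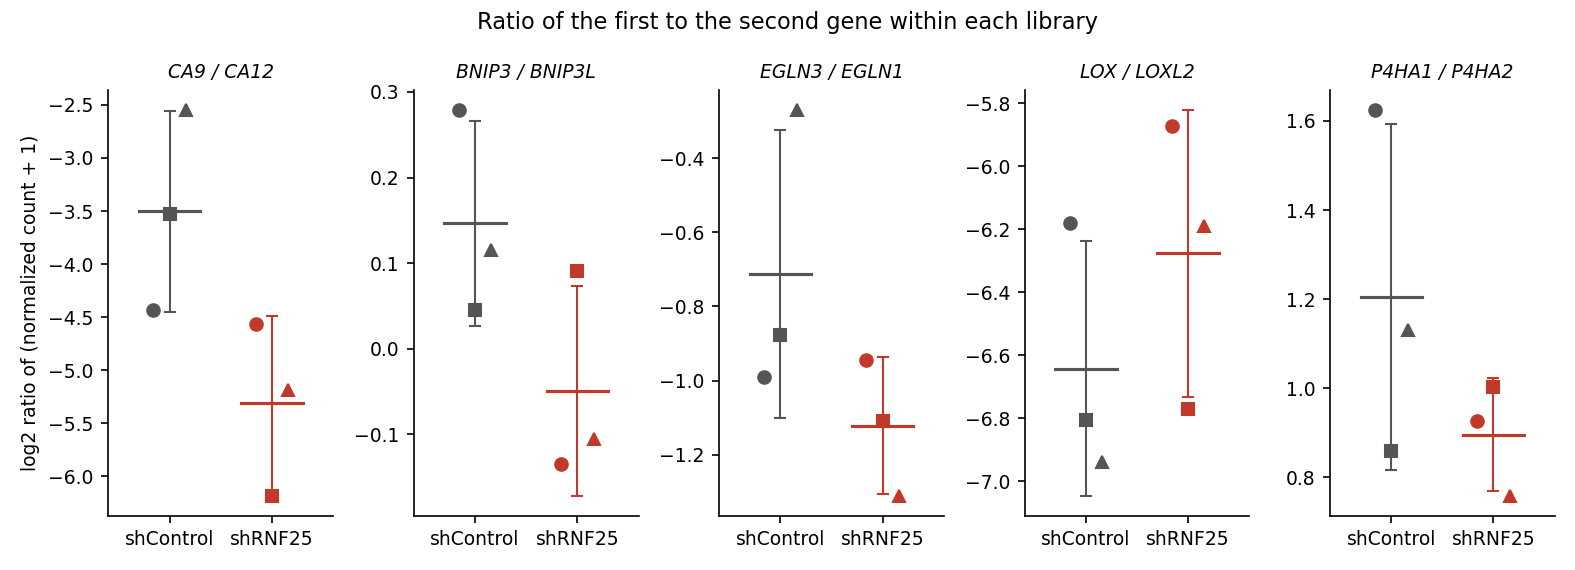
Log2 ratio of (normalized count + 1) of the first to the second gene in each library for 5 pairs, grey for shControl and red for shRNF25, with marker shapes for replicate numbers, lines for the mean and bars for the SD (n = 3), each panel on its own axis. CA9 to CA12 separates the groups by a narrow margin, and the other 4 pairs overlap.

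A wider list of 54 other HIF targets, compiled from general knowledge, had more genes called lower than higher. Of its 47 tested genes, 23 were called lower and 2 higher, beside 7.1% and 8.65% of all tested genes, and the median was -0.59. VEGFA, the main vessel growth factor, had 7242, 7558 and 10075 normalized counts in shControl 1, 2 and 3 against 3012, 2705 and 2554 in shRNF25 1, 2 and 3. It fell by 1.58 (standard error 0.142, adjusted p = 0.000157 from limma). The 3 largest falls of the list were 2.38 for ANGPTL4, a secreted inhibitor of lipoprotein lipase, 2.25 for DDIT4, an inhibitor of mTOR signaling, and 2.15 for PPFIA4. ANGPTL4 had uneven controls, with 448.8, 452.5 and 3549.8 normalized counts and a log2 fold change of -1.39 without shControl 3, and its call (adjusted p = 0.0324) was lost when any 1 of the shRNF25 libraries was left out, with adjusted p-values of 0.0925 to 0.0989. CCND1, a cell cycle gene and HIF target of renal carcinoma, had a log2 fold change of 0.08 (adjusted p = 0.601). With quantile normalization it had 0.37 (adjusted p = 0.0204 from limma), under the 1.5-fold limit. In the other 16 alternatives the adjusted p of CCND1 was over the threshold.

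The genes of the wider list that rose, 2 in number, were FLT1, a receptor of VEGFA, by 2.21 (adjusted p = 0.0124 from limma), and LOXL4. FLT1 had only 2, 1 and 5 reads in the controls and 19, 20 and 11 in the knockdown libraries. It met the filter on low values only through the shRNF25 libraries, so it entered the test only because it was higher there. The calls of FLT1 and LOXL4 were each lost when shRNF25 1 was left out, which left 0 higher genes. Leaving out shRNF25 2 or shRNF25 3 left 1. Glycolytic genes, the other large arm of the HIF response, had 8 called lower and 0 higher of 20 tested by limma, edgeR and DESeq2 alike. By limma, 7.1% of all tested genes were called lower and 8.65% higher. The glycolytic genes had a median of -0.54 and 0 higher genes even at an unadjusted p under 0.05. PDK1, a kinase of pyruvate dehydrogenase, fell by 1.39, SLC2A1, the glucose transporter, by 1.23, PFKP by 1.08, LDHA by 0.90 and PGK1 by 0.70. LDHA and PGK1 have processed pseudogene copies that could take some of their reads.

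**Figure D5:**
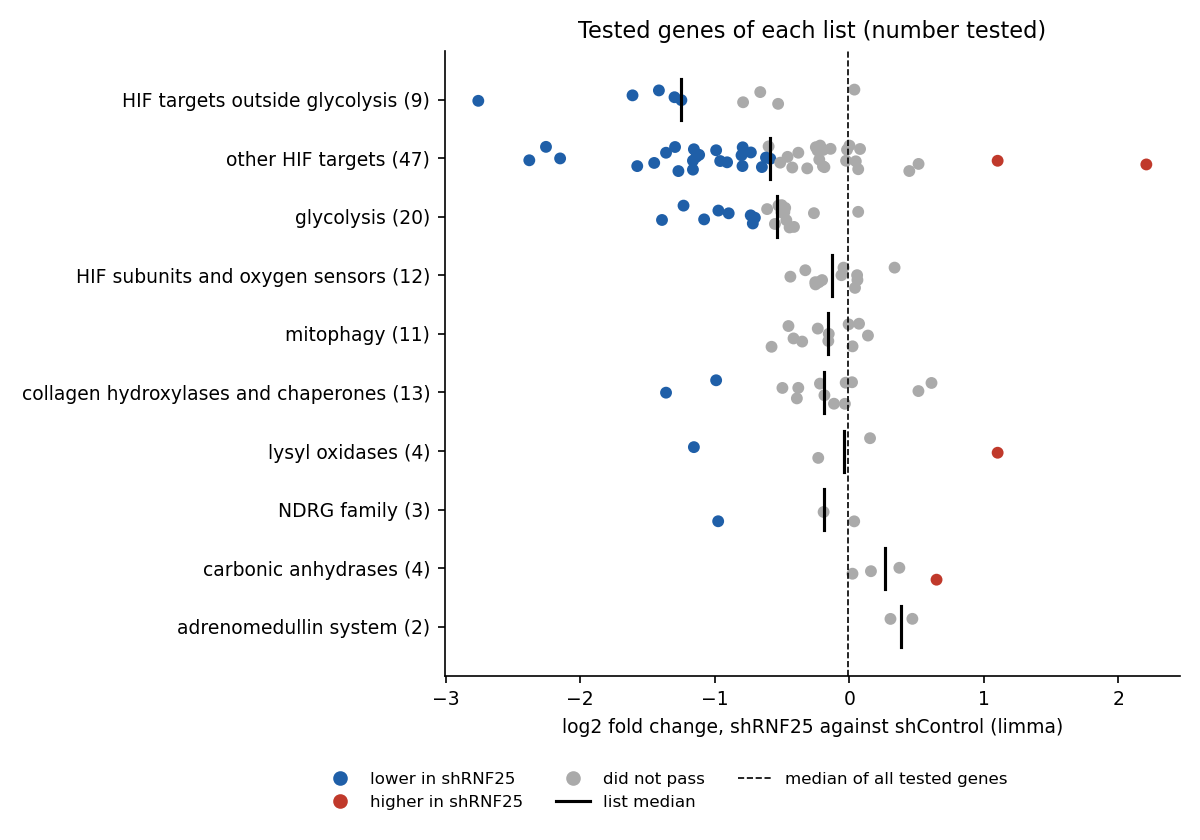
Log2 fold change of shRNF25 against shControl from limma for the tested genes of the set and of 9 further lists, 1 point per gene spread vertically for visibility, blue for called lower, red for called higher and grey for not passing, with a bar at each list's median and a dashed line at the median of all tested genes (-0.01). The medians of the 10 examined genes (-1.25, 9 tested), other HIF targets (-0.59) and glycolysis (-0.54) lie left of the line, while HIF subunits and oxygen sensors sit near it.

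The scaling touched these counts. The summed normalized counts were higher in each shControl library than in each shRNF25 library, and scaling to total reads in place of size factors shifted the median of all genes to 0.19. The same 5 genes of the set stayed called lower, between -2.55 for NDRG1 and -1.04 for ADM, while 684 genes in all were lower and 2377 higher.

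Markers of the renal line and of other cell types are given beside these results. Of 10 renal and epithelial markers in the table, LHX1 was below the filter and 9 were tested. KRT8, KRT18, EPCAM, CDH1 and PAX8 were detected in every library, and VIM rose by 1.31 (adjusted p = 0.00805 from limma). PAX2, also on the list, was absent from the table, and NDUFA4L2 had only 11 to 32 reads in the libraries. The 6 immune markers of the table summed to 38.7 to 55.0 normalized counts in shControl and 28.6 to 47.4 in shRNF25, with CD3E and CD68 at 3 reads or fewer. The 5 endothelial markers summed to 496 to 698 and 495 to 647, while CDH5 fell by 4.12 and KDR rose by 1.78. Most of these sums was PECAM1, with 350 to 466 in shControl and 399 to 549 in shRNF25. CDH5 had 73.0, 102.6 and 198.6 normalized counts in the shControl libraries, and 3.6, 8.3 and 5.7 in those of shRNF25. It met the filter only through the shControl libraries. The 7 fibroblast and pericyte markers summed to 1156 to 1316 and 921 to 1063, with COL1A2 and DCN at 3 reads or fewer in every library. Nearly all of these sums was COL1A1, with 1090 to 1258 in shControl and 848 to 992 in shRNF25. The part of these markers in the results was not tested.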

How the data were processed

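RNA-seq libraries of SW839 cells (3 shRNF25, 3 shControl) were grouped by titles and genotype labels. The treatment text of all samples, controls included, names the shRNF25 plasmid. The submitters' processing notes name fastp, HISAT2, HTSeq and GRCh38, and the study names DESeq2. The authors deposited normalized counts, a signal made by dividing reads by a size factor. Whole reads were recovered for 100% of values (tolerance 0.1 reads). Values were transformed as log2(normalized count + 1), which understates changes of low genes, and compared with limma 3.58.1 (eBayes with a trend) in R 4.3.3 for 16554 genes with at least 10 in at least 3 libraries. Adjusted p-values are Benjamini-Hochberg values over all of them. The fit was run on simulated data that had the same spread in both groups. The wider spread of the shControl libraries was not simulated.

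The set, the gene lists and the tests were chosen with earlier results of these data known, and the lists are no independent evidence. Named genes were the 10 genes, RNF25, main HIF pathway genes and targets, the second gene of each pair and, in each list, up to 3 called genes with the largest fall and rise, and others were named after their values were seen. Alternatives were pseudocounts of 5 and 0.5, no filter, a minimum of 50 in 3 or more libraries, edgeR 4.0.16 and DESeq2 1.42.0 on recovered reads, normalization by quantiles, rescaling on genes averaging 100 or more, library weights by group, a replicate block, a fold change of at least 2 and each library left out. Scaling to total reads was added after seeing the data. Gene positions, exon lengths and overlaps come from GENCODE 29, matched by symbol.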

Additional observations from a re-analysis of the deposited data

How the results depend on the processing

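Of the 10 genes, 5 or 6 were called lower and 0 higher under every alternative, and NDRG1, BNIP3, BNIP3L, P4HA1 and ADM were called in each. Of the alternative values of the 9 tested genes, 143 kept direction and side of the threshold, 5 passed it newly (EGLN3 and LOX) and 3 changed sign (CA12). Other HIF targets called lower numbered 13 at a fold change of at least 2, and 18 to 24 elsewhere. Those called higher numbered 1 with at least 50 in at least 3 libraries, and 0 to 3 with single libraries left out. With the replicate number as a block (replicate block), 6 of the 10 genes were lower, LOX being added (-0.79, adjusted p = 0.0401 from limma), and 23 other HIF targets. Same-numbered libraries did not deviate together (correlations of -0.0638, -0.0874 and 0.0471), and those of unlike number had -0.139 to 0.183. No pairing by number was thus seen, though so few libraries cannot exclude one. Signs near 0 turned: HIF1A to 0.0176 with quantile normalization and 0.0046 with total reads, VHL to 0.0488, 0.0226 (rescaled) and 0.16, EGLN2 to -0.0445 with quantile normalization and CA12 to -0.00934 with DESeq2. With single libraries left out, log2 fold changes ranged from -0.17 to 0.31 for CA12, -0.45 to 0.0805 for HIF1A, -0.16 to 0.013 for VHL and -0.10 to 0.19 for EGLN2. Over all genes, single libraries left out gave 813 to 1269 lower and 748 to 1725 higher calls, at least 50 in at least 3 libraries gave 987 and 898, and total reads 684 and 2377, against 1175 and 1432. The cause was not tested. CA9, FLT1, ANKRD37 and LOX had few reads, and the part of depth in their values was not tested.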
